A study of Mus musculus with 4 samples.

Results

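Tmsb10, Tmsb4x, Tpt1 and the pseudogene Tpt1-ps3 are described here site by site, from GLORI m6A profiles of mouse retinal organoids. The members were found by gene name in the deposited site tables: 96 positions under these 4 genes, of 1076788 positions listed in any library. The genes were selected on measured values, with m6A levels of their sites with and without dTAG13 already known. Their level changes are therefore given as a description and support nothing further. GLORI deaminates unmethylated adenosine to inosine, read as G, so the share of A among A and G reads at a position is its m6A level. Per the labels, organoids of an Rx:GFP line whose endogenous Mettl3 carries FKBP12F36V-HA at its C-terminus were grown to day 6. They were collected without dTAG13 (0 h, called untreated, 2 libraries) or after 8 h in 125 nM dTAG13 (2 libraries), a compound that sends proteins with this degron to the proteasome. Both groups carry the degron, so no library represents organoids without it. The genotype field runs from Mettl3 to Mettl6 over the 4 libraries, 1 name each, whereas the series text names Mettl3 throughout. METTL3, the catalytic subunit of the main mRNA m6A methyltransferase, was not measured as protein here. Nothing in the labels says that the 2 libraries of a group came from separate cultures, so any spread between them may be technical.

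Tmsb10 and Tmsb4x encode beta-thymosins, small peptides that bind monomeric actin and hold it out of filaments. Tpt1 encodes translationally controlled tumour protein (TCTP), an abundant conserved protein tied to growth and survival, and its mRNA begins with the oligopyrimidine tract shared by many mRNAs of the translation machinery. Tpt1-ps3 is annotated as a pseudogene of Tpt1, and reads of such near-identical copies can be assigned to either locus. Its values and those of Tpt1 are therefore uncertain as to their source. m6A lies mostly near stop codons and in 3′ UTRs of mRNAs, where reader proteins bind it.

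The libraries listed 220034 to 350462 sites each, with a median of 75 to 91 reads per site. Called sites alone are listed. The lowest values in any table were 15 reads, 5 of them A, and a level of 10%, so a site missing from a table may be unmethylated, below these limits or uncovered. The submitters' processing notes name mm10 as the genome build, but the positions do not match it. No member position lies within its gene's GRCm38 interval in RefSeq, and 10.8% of the positions under all genes with a RefSeq symbol do. Positions are given as listed, and exons and UTRs are not assigned. As a check of the tissue, all 5 retinal progenitor genes of a marker list (Rax, Pax6, Six3, Six6, Lhx2) were listed in every library, with summed coverage of 1409 to 2293. Of 5 pluripotency genes, 4 or 5 were listed per library and summed to 375 to 488. Of 5 early neuron genes, 2 to 4 were listed and summed to 283 to 380, and of 5 mesoderm and endoderm genes, 1 to 3 were listed and summed to 26.0 to 158. Coverage is known only for genes with a listed site in the library, so an expressed gene without one counts as absent. The sums therefore cover changing genes. Coverage in all 4 libraries was known for 5 retinal progenitor, 4 pluripotency, 2 early neuron and 1 mesoderm and endoderm genes. In such bulk RNA, fewer cells of a type and less RNA per cell cannot be told apart.

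Most positions of the 4 genes were listed once, as in the whole series, and a few recurred. Of the 96 positions, 75 appeared in a single library, 10 in 2 libraries, 4 in 3 libraries and 7 in each of the 4 libraries. Listing in all 4 thus covered 7.29% of the member positions and 0.232% of all positions, and listing in a single library 78.1% and 92.6%. This difference was not tested, and the members are among the more highly covered genes. Any site named below that neither group lists in both of its libraries was chosen after its values were seen. The 7 recurrent positions lay in Tmsb10 (4), Tpt1-ps3 (2) and Tpt1 (1), and Tmsb4x had none. At 3 of them, 1 each in Tmsb10, Tpt1 and Tpt1-ps3, the level was lower in both dTAG13 libraries, by 12.7 to 37.2 percentage points. The other 4, all at levels under 22%, differed by -1.64 to 5.22 points.

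**Figure D1:**
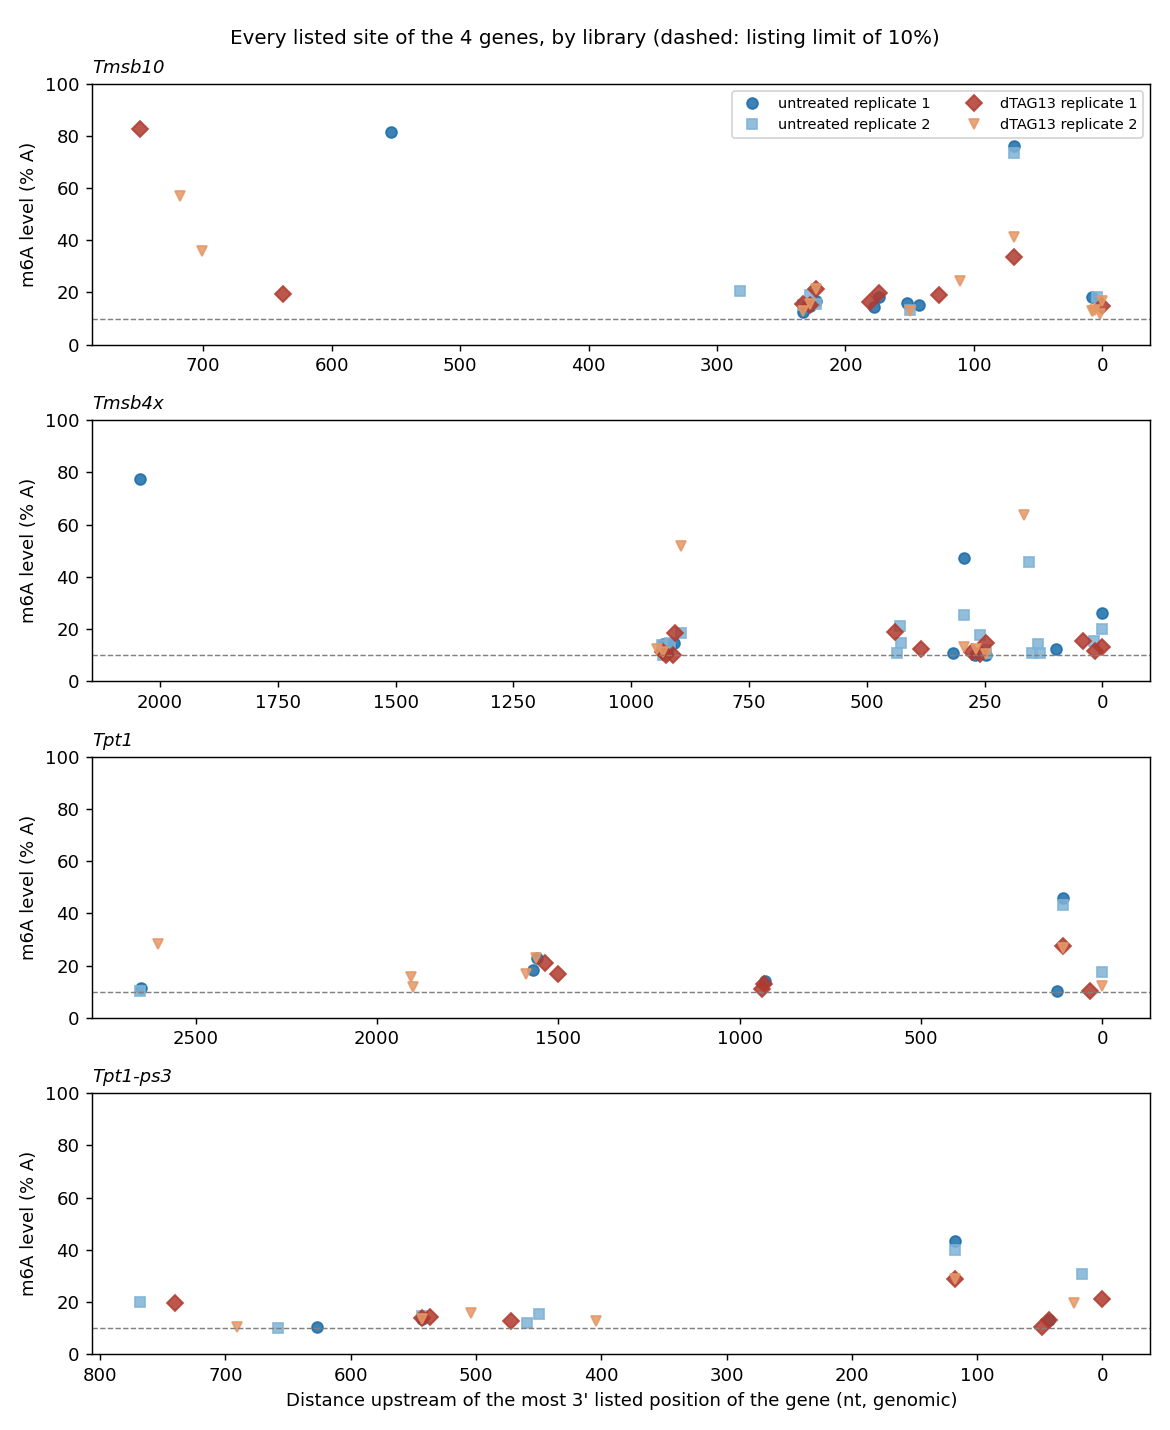
Level of every listed site (vertical axis, % A among A and G reads) against its genomic distance in nucleotides upstream of the most 3′ listed position of the gene, 1 panel per gene and 1 marker per library. The marker at 69 nt in Tmsb10 is near 75% in the untreated libraries and near 37% with dTAG13, most other markers lie between 10 and 25%, and most sites above 40% appear in 1 library.

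In Tmsb10, the site at chr6:72934416 (minus strand) carried the change. It lay 69 nt upstream of the most 3′ position listed for the gene. The untreated libraries had levels of 76.0% and 73.4% there, and the dTAG13 libraries had 33.4% and 41.4%. The groups did not overlap, and the closest pair of values lay 31.9 points apart. The means were 74.7% ± 1.85 and 37.4% ± 5.64 (SD, n = 2 each), a ratio of 0.501. Between 362 and 824 reads stood behind each value, and the Wilson 95% intervals ran from 28.8 to 45.9% with dTAG13 and from 70.0 to 78.8% without it. Such intervals cover counting error only. With the unconverted share of A in the gene (given below) subtracted, the values were 67.3 and 65.9 points untreated and 27.1 and 35.6 points with dTAG13.

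The other recurrent Tmsb10 sites formed a group of 3 positions within 10 nt, at chr6:72934570, chr6:72934575 and chr6:72934580. At chr6:72934570 the level was 16.8% and 15.4% untreated and 21.4% and 21.3% with dTAG13. The dTAG13 values lay above the untreated ones, opposite in direction to the site 154 nt downstream, by 5.22 points. This difference did not pass the fit across all sites. At chr6:72934575 the levels were 14.7% and 19.1% against 15.1% and 15.4%, and at chr6:72934580 they were 12.7% and 15.4% against 15.7% and 13.1%. At both positions the groups overlapped.

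The unconverted share of A in Tmsb10 was taken as the background of the method in that gene. All levels at these 3 positions were above it, but no level under 10% was listed. The share was at most 8.70%, so any listed Tmsb10 level had to exceed it, and nothing is read from this. By its definition this share can also hold methylated A of the gene. A change of the excess may therefore partly come from m6A at other positions, which was not tested. That share came to 8.70% and 7.47% untreated and 6.36% and 5.85% with dTAG13. At chr6:72934570 the level thus exceeded the background by 8.08 and 7.96 points untreated and by 15.01 and 15.43 points with dTAG13. At chr6:72934575 the excess was 6.02 and 11.7 points, then 8.75 and 9.60 points. At chr6:72934580 it was 3.98 and 7.92 points, then 9.36 and 7.21 points.

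The most 3′ listed position of Tmsb10, chr6:72934347, was listed in both dTAG13 libraries at 14.8% and 16.7% and in neither untreated library. The other Tmsb10 sites listed in 2 libraries had 1 in each group: chr6:72934355 at 18.4% untreated and 12.9% with dTAG13, chr6:72934497 at 13.2% and 13.0%, and chr6:72934521 at 18.1% and 19.8%. Of the 24 positions of Tmsb10, 16 were listed in 1 library. The highest levels were among them: 81.6% at chr6:72934901 in untreated replicate 1 (174 reads) and 82.6% at chr6:72935096 in dTAG13 replicate 1, which rested on 23 reads.

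Tmsb4x, on chromosome X, had 36 listed positions, more than any of the other 3 genes, and none in all 4 libraries. Its site at chrX:165990382 (minus strand) was at 47.2% in untreated replicate 1, 25.2% in untreated replicate 2 and 13.1% in dTAG13 replicate 2, with 1080 to 1665 reads. It was not listed in dTAG13 replicate 1. That library did list chrX:165990365, 17 nt away, with 1148 reads at 11.2%. The untreated libraries, with a mean of 36.2% ± 15.6 (SD, n = 2), lay 22.0 points apart, more than the 12.1 points between untreated replicate 2 and dTAG13 replicate 2.

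The most 3′ listed position of Tmsb4x, chrX:165990089, was at 26.1% and 19.9% untreated and 13.1% in dTAG13 replicate 1, with 352 to 463 reads, and was not listed in dTAG13 replicate 2. At each of these sites the listed dTAG13 value was below both untreated values. The other sites listed in 3 libraries, or in both of a group, stayed near the listing limit. At chrX:165990336 the levels were 10.2% and 10.8% untreated and 10.4% in dTAG13 replicate 2. At chrX:165991021 they were 10.1% in untreated replicate 2 and 11.2% in both dTAG13 libraries. The site at chrX:165991007 was listed in both untreated libraries, at 14.0% and 14.6%, and in neither dTAG13 library.

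Of the Tmsb4x sites listed in 1 library of each group, chrX:165990349 was at 17.6% in untreated replicate 2 and 10.3% in dTAG13 replicate 1, on 1343 and 1281 reads. At chrX:165991016 the levels were 14.3% in untreated replicate 1 and 10.1% in dTAG13 replicate 1, on 175 and 317 reads. At chrX:165990983 the order was turned, with 18.6% in untreated replicate 2 and 51.6% in dTAG13 replicate 2, on 97 and 91 reads. These sites have no replicate check.

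Tpt1 had 1 recurrent site. It lay at chr14:76085620 (plus strand), 108 nt upstream of the most 3′ listed position. The level was 45.9% and 43.1% untreated and 27.4% and 26.8% with dTAG13, on 6572 to 10767 reads. The groups did not overlap, and their closest values lay 15.7 points apart, against 2.79 points between the untreated libraries and 0.590 between the dTAG13 libraries. The means were 44.5% ± 1.97 and 27.1% ± 0.417 (SD, n = 2 each), a ratio of 0.610. With the unconverted share subtracted, the site stood at 40.4 and 38.5 points untreated and 23.0 and 21.9 points with dTAG13. The Tpt1 site thus kept a larger share of its untreated level than the Tmsb10 site, and this difference between genes was not tested.

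The other Tpt1 positions were low. The most 3′ one, chr14:76085728, was at 17.7% in untreated replicate 2 and 12.1% in dTAG13 replicate 2. The 16 positions listed in 1 library were at 10.1 to 28.2%, with a median of 14.7%. Even with 10121 reads, chr14:76085604, 16 nt upstream of the recurrent site, was listed in untreated replicate 1 alone, at 10.4%.

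Tpt1-ps3 lies on chromosome 6, and its recurrent sites were chr6:99854698 and chr6:99855123 (minus strand). At chr6:99854698 the level was 43.2% and 39.8% untreated and 28.8% and 28.7% with dTAG13, on 8499 to 13626 reads. The groups did not overlap. The means were 41.5% ± 2.45 and 28.7% ± 0.100 (SD, n = 2 each), a ratio of 0.693. At chr6:99855123, 425 nt further upstream, the levels were 13.7% and 14.7% untreated and 13.8% and 13.4% with dTAG13, and the groups overlapped. That site had 783 to 1376 reads, and its Wilson 95% intervals, which all overlapped, ran from 11.5 to 16.6%. Of the other 16 positions, 15 were listed in 1 library, at 10 to 30.7%, and chr6:99854623 was at 13.0% in untreated replicate 1 and 13.1% in dTAG13 replicate 1.

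**Figure D2:**
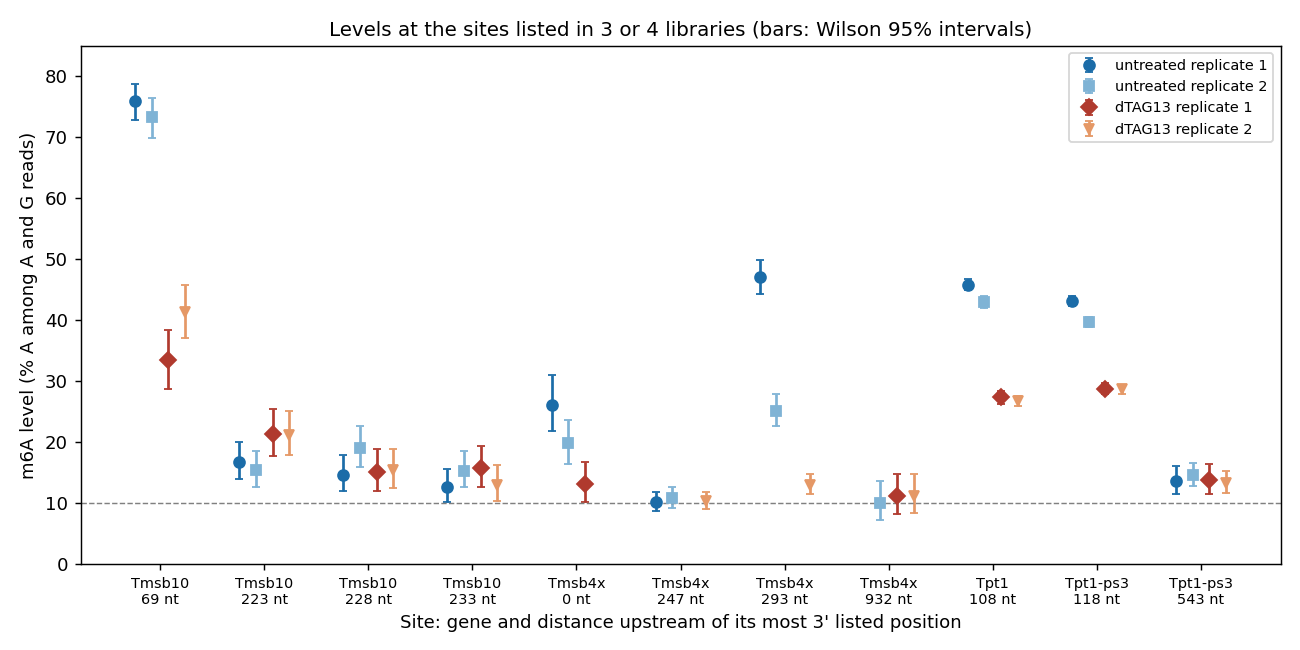
Level (vertical axis, % A) at each site listed in 3 or 4 libraries, named below by gene and by distance from its most 3′ listed position, with 1 marker per library and Wilson 95% intervals as bars. At Tmsb10 69 nt, Tpt1 108 nt and Tpt1-ps3 118 nt both dTAG13 markers lie below both untreated markers, and the markers near the dashed 10% limit overlap.

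The question for Tpt1 and its pseudogene is how alike their values are. The deepest site of each lay at a similar distance from the most 3′ listed position, 108 nt in Tpt1 and 118 nt in Tpt1-ps3. In the untreated libraries the level in Tpt1 was above that in Tpt1-ps3, by 2.63 points (95% counting interval 1.37 to 3.90) in replicate 1 and 3.31 points (2.02 to 4.61) in replicate 2. In the dTAG13 libraries it was below, with a difference of -1.41 points (-2.86 to 0.03) in replicate 1 and -1.86 points (-2.99 to -0.72) in replicate 2. The difference thus changed sign between the groups, from a mean of 2.97 ± 0.48 to -1.63 ± 0.32 points (SD, n = 2 each). As it comes from the levels on which the genes were selected, this change has no test. The unconverted share of A was higher in Tpt1 than in Tpt1-ps3, by 1.19 and 0.771 points untreated and 0.765 and 1.08 points with dTAG13. Subtracting each gene's share left 40.4 and 38.5 points in Tpt1 and 39.0 and 35.9 points in Tpt1-ps3 untreated. The dTAG13 values were then 23.0 and 21.9 points in Tpt1 and 25.2 and 24.8 points in Tpt1-ps3. With the reads of both sites summed, the level was 44.4% and 41.2% untreated and 28.2% and 27.9% with dTAG13.

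**Figure D3:**
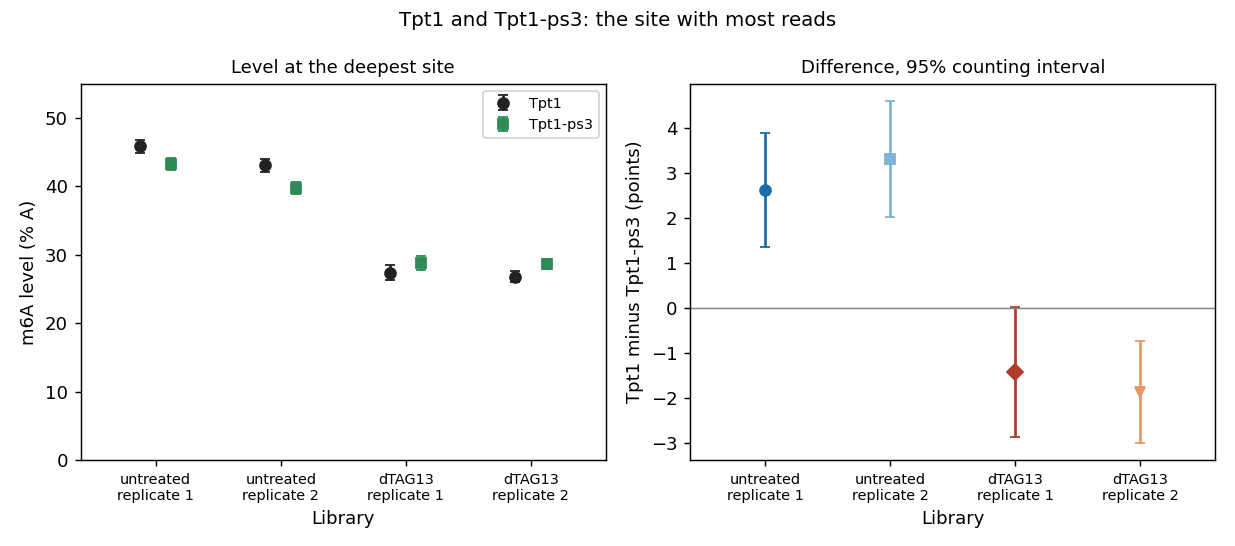
Left, level (% A) at the site with most reads in Tpt1 (circles) and Tpt1-ps3 (squares) in each library, with Wilson 95% intervals. Right, the level in Tpt1 minus that in Tpt1-ps3 in percentage points with its 95% counting interval, above 0 in both untreated libraries and below 0 in both dTAG13 libraries.

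The ratio of read numbers within the pair was similar in the 4 libraries. All 4 genes had their lowest coverage in dTAG13 replicate 1. Whether the ratio of this pair is steadier than that of other genes was not tested. Tpt1-ps3 had 1.21 and 1.30 times the reads of Tpt1 at these sites in the untreated libraries, and 1.29 times in both dTAG13 libraries. Its deposited gene coverage was 1.60 and 1.51 times that of Tpt1 untreated, and 1.52 and 1.56 times with dTAG13. The pseudogene was therefore listed with more coverage than the gene in every library. Counted from the deepest site, Tpt1 had a position 74 nt downstream and Tpt1-ps3 had 1 at 75 nt, and the next Tpt1 position, at 108 nt, had its nearest Tpt1-ps3 position at 102 nt. The deepest sites themselves match by construction, since distances are counted from them. The Tpt1 positions 16 nt upstream and 74 and 108 nt downstream had no Tpt1-ps3 position at the same distance. Positions further upstream were not matched, since genomic distances in Tpt1 include introns.

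Read against all sites, a quasi-binomial model with limma-moderated dispersion was fitted to the 2321 sites that every library listed with 20 reads or more. It called 2.28% of them at an adjusted p under 0.05, of which lower sites made up 2.2% and higher sites 0.0862% of all tested. Of the 7 member sites tested, 3 were called lower and 0 higher, and the dTAG13 pair was under the untreated pair at 3, against 19.4% of all sites. Since these calls led to the choice of the genes, nothing is read from their share. The median change was -1.64 points over the 7 member sites and 0.104 points over all 2321. With reads summed per gene, 3 of 3 members tested were called lower, where the background is 4.53% of 1016 genes. These were Tmsb10 (34.0% ± 1.19 to 21.8% ± 1.27 over 4 sites), Tpt1-ps3 (39.4% ± 2.91 to 27.4% ± 0.178 over 2 sites) and Tpt1, whose value is that of its single site (SD, n = 2 each). Limma on log2 odds still called 41 of the 2321 sites and 41 of the 1016 genes lower. All 3 site calls and all 3 gene calls of the members were lost with it. They were also lost when any 1 library was left out, but such fits keep 1 library in 1 group and lost every site call of the series.

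The number of listed sites of these genes overlapped between the groups. The 4 genes had 32 and 34 listed sites untreated and 36 and 33 with dTAG13. The means were 33 ± 1.41 and 34.5 ± 2.12 (SD, n = 2 each; exact permutation p = 0.667), a ratio of 1.05. The ratio over all listed sites was 0.704, and the difference between these ratios was not tested. The members are among the more highly covered genes, so the 2 ratios compare sites of unlike coverage. By gene, Tmsb10 had 10 and 7 against 10 and 13, Tpt1 had 6 and 3 against 6 and 7, and Tpt1-ps3 had 4 and 7 against 8 and 6. Tmsb4x went the other way, with 12 and 17 against 12 and 7. The groups touched or overlapped in every gene, and every exact permutation p was 0.667. At levels of 40% or more the 4 genes had 6 and 3 listed sites untreated and 1 and 4 with dTAG13.

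The order of the genes by deposited coverage was the same in all 4 libraries: Tpt1-ps3 was highest, then Tpt1, Tmsb4x and Tmsb10. How the authors averaged coverage over a gene is not given in the sources used here. Tpt1-ps3 was at 5646 and 5210 untreated and 3487 and 5661 with dTAG13. Tpt1 was at 3537 and 3444, then 2299 and 3639. Each gene has a single coverage value per library, so the order within a library comes without a spread. Over libraries, the dTAG13 replicate 1 value of Tpt1-ps3 lay within the range of Tpt1. Tmsb4x was at 1101 and 1019 untreated and 680 and 1004 with dTAG13, and Tmsb10 at 301 and 242, then 170 and 215. Between 80.3% and 99.9% of the 12520 genes listed in every library lay below each of these values in the same library. dTAG13 replicate 1 had the lowest value of all 4 genes, and it also had the lowest median over all genes, 82.4 against 99.2 to 111.

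With coverage on the log2 scale centred on each library's median gene, limma called 0 of the 4 members, against 0% of the 12520 genes (0 genes, with 1595 at an unadjusted p under 0.05). Unadjusted p-values of the members were 0.114 or more. The log2 change was -0.42 ± 0.22 for Tmsb10, -0.28 ± 0.20 for Tmsb4x, -0.19 ± 0.21 for Tpt1 and -0.21 ± 0.22 for Tpt1-ps3 (SE, n = 2 per group; limma adjusted p 0.463, 0.587, 0.713 and 0.699). The dTAG13 pair was under the untreated pair in 3 members, all but Tpt1-ps3, against 29.2% of all genes. Among the 200 genes of highest mean coverage, a set chosen after the data were seen, this share was 73% and the median log2 change was -0.31. Tpt1 and Tpt1-ps3 ranked within the highest 200 in every library, whereas Tmsb4x ranked 281 to 347 and Tmsb10 1614 to 2462. Leaving out 1 library at a time, the log2 change ranged from -0.60 to -0.23 in Tmsb10, from -0.36 to -0.19 in Tmsb4x, from -0.31 to -0.07 in Tpt1 and from -0.34 to -0.07 in Tpt1-ps3. The smallest change came without untreated replicate 1 in the thymosin genes and without dTAG13 replicate 1 in Tpt1 and Tpt1-ps3.

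**Figure D4:**
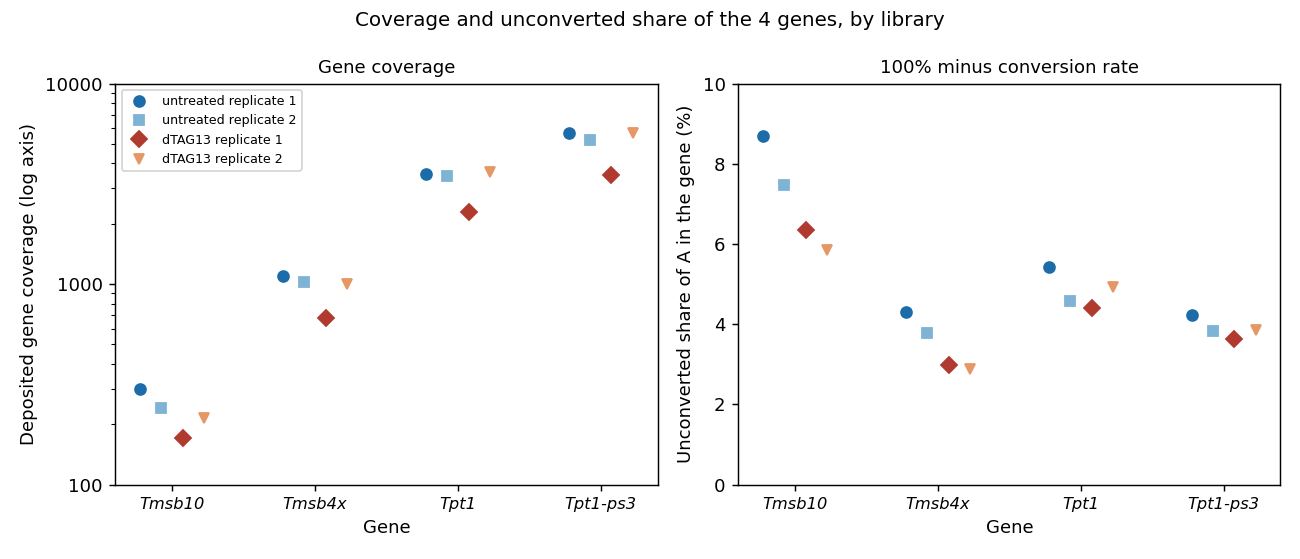
Left, deposited gene coverage (log axis) of the 4 genes in each library; dTAG13 replicate 1 is lowest in every gene. Right, unconverted share of A in the gene (%), highest in Tmsb10 at 5.85 to 8.70% and, in Tmsb10 and Tmsb4x, lower in both dTAG13 libraries.

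The conversion rate is the share of A read as G over a gene, and it sets the background of each site. In Tmsb10 it was 91.3% and 92.5% untreated and 93.6% and 94.1% with dTAG13, the lowest of the 4 genes in every library. In Tmsb4x it was 95.7% and 96.2%, then 97.0% and 97.1%. In both thymosin genes the dTAG13 libraries lay above the untreated ones, as in 40.9% of all genes. The differences were 1.98 and 1.11 points, with an exact permutation p of 0.333, the smallest possible. In Tpt1 the rate was 94.6% and 95.4% untreated and 95.6% and 95.1% with dTAG13, and in Tpt1-ps3 it was 95.8% and 96.2%, then 96.4% and 96.2%, so that the groups overlapped. The median over all genes differed by 0.771 points. The levels given above with the unconverted share subtracted kept the groups apart at chr6:72934416 in Tmsb10 and at the deepest sites of Tpt1 and Tpt1-ps3 (39.0 and 35.9 points untreated and 25.2 and 24.8 points with dTAG13 in Tpt1-ps3).

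Genes of related function, from lists compiled for the pathways, gave 1 further call. Those without a call are named after their values were seen. Among 6 thymosin relatives by name, 4 were listed in any library, and Ptma and Ptms, which encode acidic nuclear proteins unrelated to the beta-thymosins in sequence, had 5 tested sites with 0 called. Of 13 genes of actin and actin monomer handling, 3 (Actg1, Cfl1 and Marcks) had 5 tested sites, of which 0 were called and whose median change was -0.212 points. Over the 10 sites of both lists, the differences ran from -4.08 to 5.94 points. Of 10 genes of translation and other oligopyrimidine mRNAs, 4 (Eef1a1, Eef1d, Hnrnpa1 and Rack1) had 6 tested sites. Of these sites 1 was called lower, where 2.2% of all tested sites were. The list was drawn up with earlier results of these data known, so nothing is read from this share. The called site lay in Hnrnpa1, which encodes a splicing regulator, at chr15:103152844 (plus strand). Its level was 49.1% and 54.9% untreated and 13.5% and 12.8% with dTAG13. The change of -38.9 points is close in size to that of Tmsb10, and the other 5 sites of the list were not called. This call too was lost when any 1 library was left out, but so was every other site call of the series. The loss therefore says nothing particular of this site. Coverage was called in 0 of the 25 genes of the 3 lists that were listed in all libraries. Their median log2 changes were -0.49 (thymosin relatives, 2 genes), -0.46 (actin, 13 genes) and -0.36 (translation, 10 genes), against -0.07 over all genes and -0.31 over the 200 genes of highest mean coverage.

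The genes whose level was most like a member's over the 4 libraries were found by the root mean square difference of gene levels among 1013 other genes. For Tmsb10 these were Gm4678 (2.24 points), Gm2805 (2.41) and Efnb2 (2.54). For Tpt1 they were Gm4130 (4.10), Tpt1-ps5 (5.23) and Ell (5.75), and for Tpt1-ps3 they were Gm4130 (1.64), Gm19136 (3.91) and Tpt1-ps5 (4.03). The 4 predicted genes and Tpt1-ps5 are pseudogenes in RefSeq. Each of these genes had 1 tested site, and Tpt1-ps5 is another annotated copy of Tpt1.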

How the data were processed

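Polyadenylated RNA of 4 libraries was profiled by GLORI. The authors deposited 1 table per library, without pooling. The deposited counts are A and G reads and A reads per site, and the deposited fractions are the level, equal within 0.0001 to the ratio of these counts at 100% of the sites, and the conversion rate of the gene. The gene coverage signal and the p-values of sites are also as deposited by the authors. The aligner and caller are not given in the sources used here. Per the submitters' processing notes the build is mm10, but 117 site rows lie on contigs whose names belong to GRCm39, and 0 of the 96 member positions lay inside the RefSeq GRCm38 interval of their gene. Over all genes with a RefSeq symbol, 10.8% of 831057 positions lay inside. The coordinates thus do not match mm10 and are given as listed. The contig names point to GRCm39, against which positions were not checked. Exon, UTR, sequence and motif around a site were not analysed here.

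Groups came from the sample titles. The 2321 sites that every library listed with 20 reads or more were fitted by quasi-binomial regression of A against G reads. Dispersions were moderated with squeezeVar of limma 3.58.1 (R 4.3.3) and held at 1 or above, with a two-sided F test and Benjamini-Hochberg adjustment over all sites, at a threshold of 0.05. Gene sums used the same model. Coverage was tested with limma on median-centred log2 values. The fits were tested on simulated data. Single values were compared by exact two-sided permutation. Shares have Wilson 95% intervals. Alternatives were other read minimums, limma on log2 odds, Fisher's exact test on summed reads, correction for unconverted A, a replicate block, no centring, and leaving out each library. The text names all members, their sites listed in every library or in both libraries of a group, list genes with a call, and the 3 genes most like each member. The members and lists were chosen with earlier results of these data known.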

Additional observations from a re-analysis of the deposited data

How the results depend on the processing

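The count of member sites called lower, 3 in the reported fit, was 3 with at least 10 or 50 reads per library. Fisher's exact test on summed reads, which ignores the spread between libraries, also called these 3, but it called 295 of all 2321 sites lower and 236 higher and so says little of stability. The count was 0 with limma on log2 odds, which still called 41 of all 2321 sites lower. The limma adjusted p was 0.0687 for the Tmsb10 site, 0.242 for Tpt1 and 0.465 for Tpt1-ps3. The site calls were also lost in each fit that left out 1 library, but such fits keep 1 library in 1 group. The count of members called lower by gene sum, 3, likewise was 0 with limma on log2 odds, which called 41 of 1016 genes lower. The gene calls of the members were lost without any 1 library too. The level stayed lower with dTAG13 at these 3 sites in every fit. With the replicate number as a block both counts were 0, as was the count over all 2321 sites. The numbers gave no sign of pairing, with a correlation of replicate differences between groups of 0.0385 over site levels and 0.00227 over gene coverage. Small changes at 2 Tmsb10 sites reversed. The change of -1.64 points at chr6:72934575 ranged from -3.84 to 0.561 over the fits that left out a library (positive without untreated replicate 2). That of 0.358 points at chr6:72934580 ranged from -0.995 to 1.71 (-0.995 without untreated replicate 1 and -0.970 without dTAG13 replicate 1). Corrected for the unconverted share, the change at chr6:72934570 went from 5.22 to 7.48 points, that at chr6:72934575 from -1.64 to 0.180 and that at chr6:72934580 from 0.358 to 2.37. The Fisher test also called chr6:72934570 higher (adjusted p 0.0129). Coverage called 0 members under every alternative run. Among sites at 20% or more the ratio of listed sites was 2.00 in Tmsb10, 0.333 in Tmsb4x and, turned in direction from 1.27, 0.750 in Tpt1-ps3, and that of Tpt1 was 2.17 without untreated replicate 1. The ratios at 20% or more rest on a few listed sites per gene and library, so nothing is read from them or from the turn. The causes were not tested. The ratio over the 4 genes, 1.05, moved by less than the spread between libraries.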

Other observations

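The tables also name 6 other Tpt1 pseudogenes, with 59 positions in all, which were looked at after the values above were seen. Tpt1-ps5 had the deposited coverage closest to Tpt1, at 3727 and 3564 untreated and 2599 and 3435 with dTAG13. Its site at position 37608408 of chromosome 9 was the only position of these 6 pseudogenes listed in all 4 libraries, at 42.5% and 37.4% untreated and 20.7% and 31.4% with dTAG13, on 420 to 913 reads. Tpt1-ps6 had a site at position 100812742 of chromosome X, at 38.7% in untreated replicate 2 and 31.9% and 23.5% with dTAG13, on 1695 to 2679 reads. Tpt1-ps1 had one at position 101141375 of chromosome 3, at 41.2% in untreated replicate 1 and 23.8% and 29.4% with dTAG13, on 17 to 21 reads. Whether these positions correspond in sequence, and which locus the reads came from, was not tested.

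Within the stretch of chromosome 14 spanned by Tpt1 positions, the tables listed 12 sites in each untreated library and 4 and 2 in the dTAG13 libraries that were placed in no gene. These 28 positions had a median level of 40.3% and a median of 63.5 reads. Of them, 1 was listed in 3 libraries, and every other position in a single library. The corresponding numbers within Tmsb10 were 5 and 3 untreated and 3 and 5 with dTAG13, within Tmsb4x 0 and 1, then 1 and 2, and within Tpt1-ps3 none in any library. Fewer sites were listed with dTAG13 in the whole series as well, at a ratio of 0.704. The share over all sites placed in no gene was not computed, so nothing is read from the lower counts within Tpt1.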
